A study of Mus musculus with 12 samples.

Results

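The 54 genes described here encode the machinery that takes a cell from the G2 phase through mitosis and cytokinesis, and they were taken as a list of symbols from the table of gene counts. All 54 were found among the 14533 named genes of that table. Messenger RNA was sequenced from non-lesional dorsal skin, with 1 library from each of 12 untreated mice. The skin had been frozen and scraped with a curette down to the vessels under the epidermis. The 6 WT mice carried floxed alleles of Pparg, the gene of the nuclear receptor PPARγ, without a Cre transgene, and the 6 Pparg-/-epi mice carried the same floxed alleles with Cre driven by the keratin 14 promoter. All mice were of the C57BL/6 strain and 8 to 13 weeks old. The WT group held 3 females and 3 males, and the Pparg-/-epi group 4 females and 2 males. The keratin 14 promoter is active in basal keratinocytes of the epidermis between and within hair follicles, so the deletion was directed at keratinocytes and not at the dermal or blood-derived cells of the scrapings. The question was whether these genes differed between the genotypes, and whether a difference held once the content of growing hair follicle in each library was taken into account.

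Most genes of mitosis are transcribed only as a cell approaches division. In resting or early G1 cells their promoters are held silent, and in G2 they are switched on together by a complex that includes the transcription factor FOXM1, acting through a short promoter element called the cell cycle genes homology region (CHR) and often through CCAAT boxes bound by NF-Y. In skin the dividing cells sit in the basal layer of the epidermis and in the matrix of growing hair follicles, whose inner root sheath makes keratins 25 to 28 and 71. MKI67, the antigen seen by the Ki-67 antibody, is a widely used marker of dividing cells.

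Stretches of 7 promoters are shown because they hold the letters these genes share, and because the genes behind them behaved differently. Each runs from 200 bases before to 30 bases after the transcript start on the strand of the gene, in lower case, 5′ to 3′, from RefSeq on GRCm38.p6, with capitals marking TTTGAA, its reverse complement TTCAAA, the variant TTCGAA, and CCAAT or its reverse complement ATTGG. Cdk1 (chr10:69352883-69353112, minus strand), Ube2c (chr2:164769729-164769958, plus strand), Mki67 (chr7:135716350-135716579, minus strand), Top2a (chr11:99024160-99024389, minus strand) and Psrc1 (chr3:108383604-108383833, plus strand) were higher in Pparg-/-epi mice in the tests given further on. Ttk (chr9:83834489-83834718, plus strand) was lower, and Lbr (chr1:181842372-181842601, minus strand) was not called in either direction.
Cdk1: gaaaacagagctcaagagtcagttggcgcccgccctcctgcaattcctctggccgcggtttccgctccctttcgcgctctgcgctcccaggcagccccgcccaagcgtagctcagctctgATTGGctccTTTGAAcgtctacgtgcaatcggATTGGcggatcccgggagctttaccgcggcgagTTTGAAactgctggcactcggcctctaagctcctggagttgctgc
Ube2c: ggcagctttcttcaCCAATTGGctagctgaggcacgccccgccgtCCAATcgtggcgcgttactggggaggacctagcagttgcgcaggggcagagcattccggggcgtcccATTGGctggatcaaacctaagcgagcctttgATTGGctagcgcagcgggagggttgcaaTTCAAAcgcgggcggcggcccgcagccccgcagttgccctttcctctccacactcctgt
Mki67: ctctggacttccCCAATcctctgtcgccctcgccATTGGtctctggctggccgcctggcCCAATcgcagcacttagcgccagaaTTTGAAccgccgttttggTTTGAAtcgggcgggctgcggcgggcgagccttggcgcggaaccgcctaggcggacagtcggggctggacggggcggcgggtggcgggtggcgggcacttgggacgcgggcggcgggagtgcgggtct
Top2a: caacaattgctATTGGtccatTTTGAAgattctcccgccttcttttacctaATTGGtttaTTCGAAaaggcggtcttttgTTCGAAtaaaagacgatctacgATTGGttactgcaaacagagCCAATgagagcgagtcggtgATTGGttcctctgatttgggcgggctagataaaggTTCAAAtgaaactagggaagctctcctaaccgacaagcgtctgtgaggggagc
Psrc1: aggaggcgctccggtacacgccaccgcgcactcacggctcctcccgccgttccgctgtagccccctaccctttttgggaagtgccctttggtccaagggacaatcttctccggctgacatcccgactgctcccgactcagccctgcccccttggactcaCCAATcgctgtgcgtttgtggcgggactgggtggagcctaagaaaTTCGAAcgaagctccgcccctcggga
Ttk: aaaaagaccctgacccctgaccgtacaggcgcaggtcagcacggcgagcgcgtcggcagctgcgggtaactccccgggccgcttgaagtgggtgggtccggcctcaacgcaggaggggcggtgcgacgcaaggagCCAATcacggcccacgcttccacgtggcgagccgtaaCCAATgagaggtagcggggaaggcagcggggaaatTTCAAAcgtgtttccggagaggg
Lbr: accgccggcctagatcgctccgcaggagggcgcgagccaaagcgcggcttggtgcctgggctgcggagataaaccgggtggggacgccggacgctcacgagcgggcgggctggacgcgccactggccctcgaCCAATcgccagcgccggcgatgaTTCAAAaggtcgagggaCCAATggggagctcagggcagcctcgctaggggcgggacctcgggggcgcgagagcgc

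RefSeq promoter windows of 250 bases before to 50 after the start were at hand for 46 of the 54 genes, which had 49 windows. The letters TTTGAA or TTCGAA were found on either strand in 77.6% of these windows, against 14.2% of the 13983 windows of all 10993 listed genes. CCAAT was found on either strand in 79.6% against 37.0%, at least 2 CCAAT matches in 57.1% against 13.2%, and both kinds of letters in 67.3% against 5.71%. CCAAT and ATTGG can overlap, as at CCAATTGG in Ube2c. Among the 30 matched genes called higher 78.1% of windows held TTTGAA or TTCGAA, and among the other 16 genes, which include Ttk, 76.5% did. The letters did not separate the genes called higher from the others. In the printed stretches Ttk and Lbr each held 1 match to TTTGAA or TTCGAA and 2 to CCAAT, while Top2a held 4 and 5. A match of letters is a description and not evidence that a factor binds there.

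Values are CPM, the counts of a gene per 1000000 counts of its library, scaled with trimmed mean of M values (TMM) factors. A gene was called higher or lower in Pparg-/-epi mice when its log2 fold change was at least 0.6 in size and its Benjamini-Hochberg adjusted p in edgeR's quasi-likelihood test over all 14533 genes was under 0.05. Of the 54 genes 36 rose in Pparg-/-epi mice and 1, Ttk, fell, while 17 were not called. Among all genes 5.19% were called higher and 5.08% lower. The log2 fold change was above 0 for 50 of the 54 genes and its median was 0.95, against a median of -0.01 over all genes. The 36 genes that rose did so by 1.53-fold to 2.76-fold. In 21 of the 54 genes every Pparg-/-epi mouse was above every WT mouse, which held for 3.95% of all genes. Each of the 54 genes had at least 15 counts in every mouse. In a bulk library more dividing cells and more of these RNAs in each cell cannot be told apart, and the p-values measure the spread between mice.

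**Figure D1:**
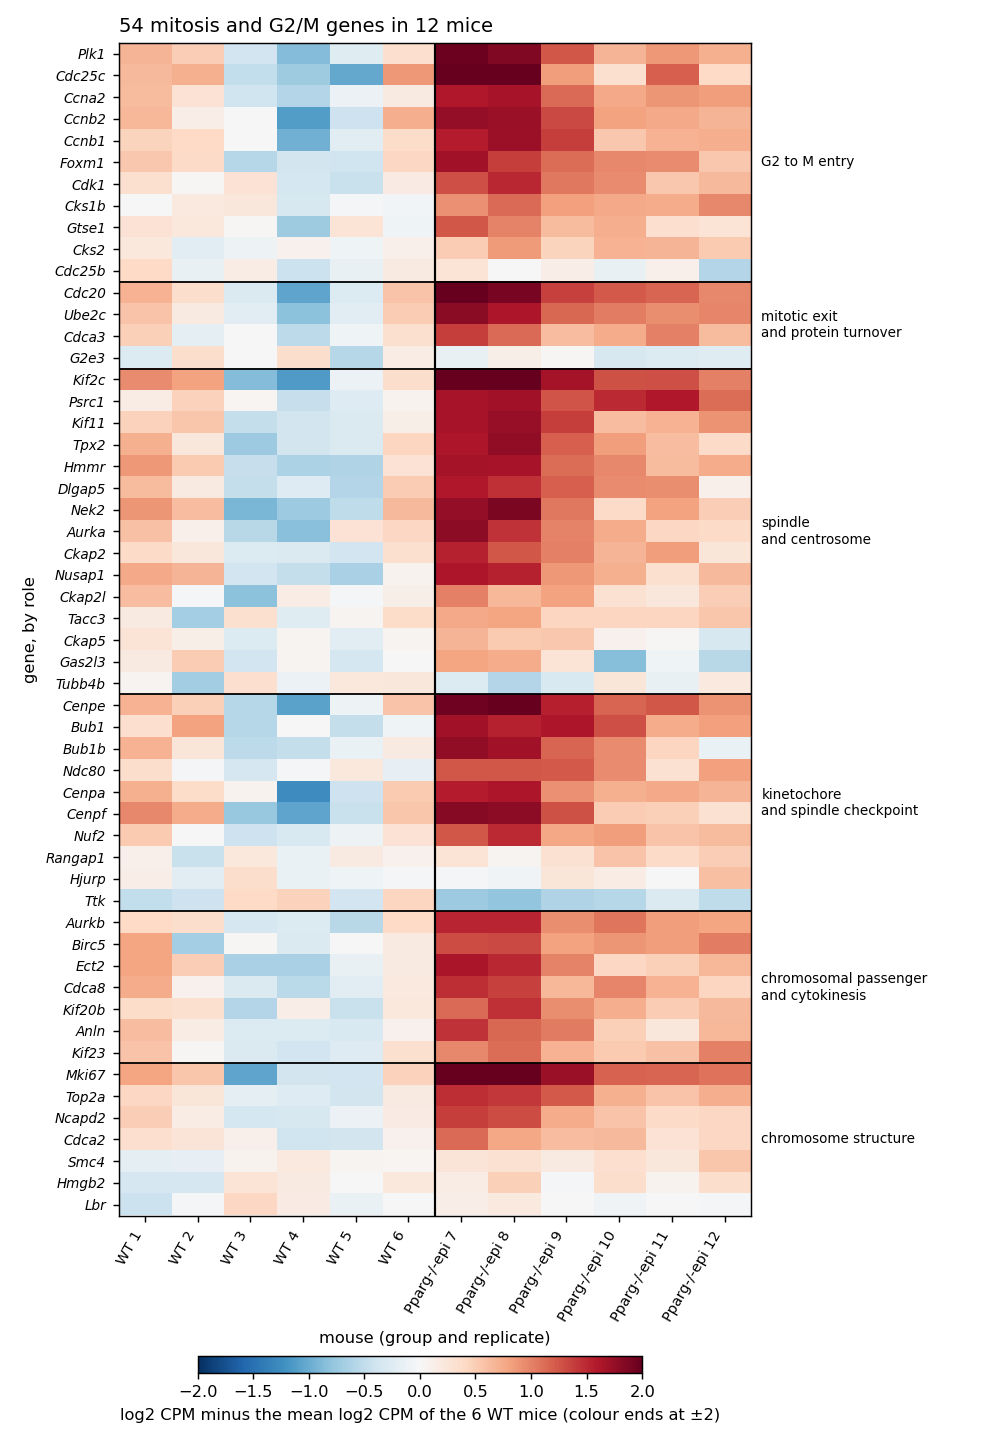
Each row is 1 of the 54 genes, grouped by role and ordered by fold change, and each column is a mouse; the colour is log2 CPM minus the mean log2 CPM of the 6 WT mice, and it saturates at 2. Most rows are red in all 6 Pparg-/-epi columns, most deeply in replicates 7 and 8, while Ttk is blue there and the rows of Cdc25b, G2e3, Tubb4b and Lbr are pale.

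The level of each gene per kilobase of its counted length spanned a wide range. In WT mice it went from 1.15 CPM per kb for Bub1 to 266 CPM per kb for Tubb4b, with a median of 4.43. In Pparg-/-epi mice it went from 2.15 CPM per kb for Gas2l3 to 239 CPM per kb for Tubb4b, with a median of 8.98. The 4 genes with the highest WT level per kilobase, Tubb4b, Rangap1, Hmgb2 and Smc4, were among those not called. Tubb4b is a beta tubulin, Rangap1 activates the GTPase of Ran in nuclear transport, and Hmgb2 and Smc4 act on chromatin.

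Mki67 (chr7:135689788-135716379 on mm10, minus strand), which coats mitotic chromosomes, had 195, 168, 54.8, 87.7, 87.6 and 157 CPM in WT replicates 1 to 6. In Pparg-/-epi replicates 7 to 12 it had 466, 462, 377, 258, 255 and 241 CPM. No WT mouse reached the lowest Pparg-/-epi mouse, and the difference was 1.46 on the log2 scale (SE 0.31, adjusted p = 0.00717 in edgeR). Top2a (chr11:98992947-99024189, minus strand), the topoisomerase that untangles sister DNA strands, had 83.0, 74.0, 54.4, 52.1, 48.3 and 70.4 CPM in the WT mice and 173, 167, 146, 103, 93.1 and 104 CPM in the Pparg-/-epi mice. These groups did not overlap either, with a log2 fold change of 1.04 (SE 0.19, adjusted p = 0.00361 in edgeR). Foxm1 (chr6:128362994-128375886, plus strand), the transcription factor of the G2 genes, had 15.7, 14.1, 7.25, 8.40, 8.22 and 14.5 CPM in the WT mice and 34.7, 28.3, 23.5, 21.1, 20.9 and 15.7 CPM in the Pparg-/-epi mice. The highest WT value and the lowest Pparg-/-epi value of Foxm1 were nearly the same, and its log2 fold change was 1.08 (SE 0.24, adjusted p = 0.00968 in edgeR). For all 3 genes WT replicates 1, 2 and 6 were the higher WT mice, and Pparg-/-epi replicates 7 to 9 stood above replicates 10 to 12.

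**Figure D2:**
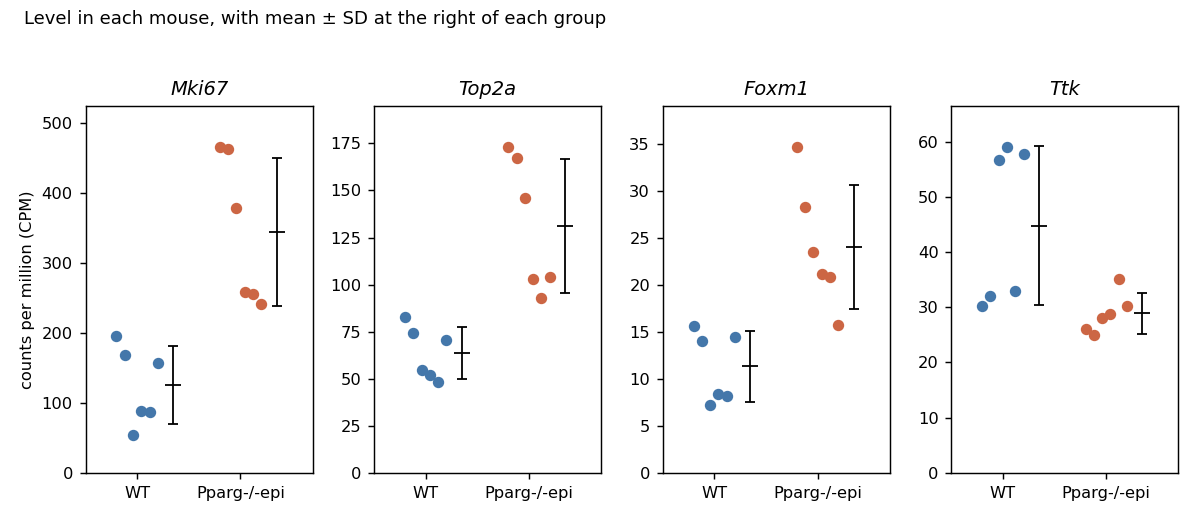
CPM of Mki67, Top2a, Foxm1 and Ttk in each mouse, in order of replicate from left to right within a group; the bars at the right of each group are the mean and SD of 6 mice. Mki67 lies between 241 and 466 CPM in Pparg-/-epi mice and at 195 CPM or less in WT mice, while the WT values of Ttk fall in an upper and a lower set.

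Of the 11 genes of entry into mitosis 9 rose and the median log2 fold change was 1.08. Cdk1, the kinase that drives entry, rose by 1.01 (SE 0.19), and its cyclins Ccna2, Ccnb1 and Ccnb2 rose by 1.12, 1.10 and 1.12. Ccna2 ran from 14.2 CPM through a median of 21.9 to 33.1 CPM in WT mice and from 36.1 through 42.9 to 66.5 CPM in Pparg-/-epi mice, without overlap. Plk1, a kinase needed for centrosome maturation and entry, ran from 3.03 through 5.82 to 8.82 CPM in WT mice and from 8.90 through 11.6 to 21.4 CPM in Pparg-/-epi mice. The groups of Plk1 touched but did not overlap, and it rose by 1.21 (SE 0.31, adjusted p = 0.0199 in edgeR). The small CDK-binding proteins Cks1b and Cks2 rose by 0.88 (SE 0.13) and 0.62 (SE 0.13), and Gtse1, a microtubule-bound protein of G2, by 0.71 (SE 0.22). The phosphatases that activate CDK1 were the 2 genes not called. Cdc25c ran from 1.19 through 2.74 to 4.41 CPM in WT mice and from 2.99 through 4.91 to 10.5 CPM in Pparg-/-epi mice, with overlap, and its log2 fold change of 1.14 had an SE of 0.43 and an adjusted p of 0.0929 in edgeR. Cdc25b ran from 35.97 through 48.6 to 63.6 CPM in WT mice and from 32.1 through 50.4 to 58.8 CPM in Pparg-/-epi mice. Its groups lay on top of each other, with a log2 fold change of -0.03 (SE 0.16).

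Of the 4 genes of mitotic exit and protein turnover 3 rose, with a group median of 1.06. Cdc20, which activates the anaphase-promoting complex (APC/C), ran from 3.90 through 8.51 to 13.2 CPM in WT mice and from 15.7 through 19.9 to 34.4 CPM in Pparg-/-epi mice. It rose by 1.39 (SE 0.29, adjusted p = 0.00773 in edgeR) and its groups did not overlap. Ube2c, the ubiquitin-conjugating enzyme of the APC/C, ran from 4.37 through 7.68 to 11.5 CPM and from 14.6 through 16.4 to 27.0 CPM, and rose by 1.21 (SE 0.25). Cdca3, an adaptor for protein turnover at entry into mitosis, ran from 9.14 through 12.8 to 18.4 CPM and from 20.2 through 24.2 to 34.3 CPM, and rose by 0.91 (SE 0.19). All 3 genes separated the groups without overlap. G2e3, a ubiquitin ligase named for its expression in G2 and M, ran from 18.7 through 29.2 to 35.6 CPM in WT mice and from 22.4 through 24.3 to 30.2 CPM in Pparg-/-epi mice, and its log2 fold change was -0.17 (SE 0.16, adjusted p = 0.522 in edgeR).

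Of the 15 genes of the spindle and centrosome 8 rose and the median log2 fold change was 0.97. Kif2c, a kinesin that takes microtubules apart, ran from 1.95 through 4.71 to 8.25 CPM in WT mice and from 8.59 through 12.0 to 19.3 CPM in Pparg-/-epi mice. It rose by 1.46 (SE 0.36, adjusted p = 0.0169 in edgeR). Psrc1, a microtubule-bound protein of the central spindle, ran from 12.0 through 17.2 to 22.8 CPM and from 35.8 through 48.4 to 52.8 CPM. Its groups were far apart, and with a log2 fold change of 1.45 (SE 0.16, adjusted p = 2.06e-04 in edgeR) it had the smallest adjusted p of the 54 genes. The kinesin that pushes spindle poles apart, Kif11, rose by 1.18 (SE 0.25). Rises of 0.95 to 1.07 were found for Tpx2, which activates Aurora A, for Aurora A itself (Aurka), and for the spindle proteins Hmmr, Dlgap5 and Ckap2, and in these 5 genes the groups overlapped.

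Not called in this group were Nek2, Nusap1, Tacc3, Ckap2l, Ckap5, Gas2l3 and Tubb4b. Nusap1, which bundles microtubules, had a log2 fold change of 0.92 (SE 0.30) and Nek2, a centrosome kinase, of 1.00 (SE 0.38), with adjusted p of 0.0551 and 0.0951 in edgeR. Tacc3, which stabilises the fibres between kinetochore and pole, was higher in every Pparg-/-epi mouse than in any WT mouse and had an adjusted p of 0.0461 in edgeR, but its log2 fold change of 0.53 (SE 0.17) lay under the required size. Ckap5, a microtubule polymerase, ran from 68.1 through 86.0 to 99.8 CPM in WT mice and from 66.0 through 103 to 132 CPM in Pparg-/-epi mice, and its fold change on the log2 scale was 0.28 (SE 0.16). Tubb4b ran from 255 through 455 to 520 CPM and from 276 through 358 to 491 CPM, with a log2 fold change of -0.15 (SE 0.18). Pparg-/-epi replicates 7 to 9 lay above every WT mouse for Ckap5, while the groups of Tubb4b overlapped almost in full. Gas2l3, which links actin and microtubules, and Ckap2l had log2 fold changes of 0.15 (SE 0.28) and 0.55 (SE 0.20).

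Of the 10 genes of the kinetochore and spindle checkpoint 6 rose and 1 fell, with a median log2 fold change of 0.96. Cenpe, the kinesin that carries chromosomes to the spindle equator, ran from 6.52 through 15.9 to 22.3 CPM in WT mice and from 25.5 through 36.3 to 56.7 CPM in Pparg-/-epi mice. It rose by 1.40 (SE 0.30, adjusted p = 0.00856 in edgeR). The checkpoint kinase Bub1 ran from 3.20 through 4.59 to 8.23 CPM and from 7.87 through 12.6 to 15.1 CPM, and it rose by 1.24 (SE 0.26), with a single small overlap between the groups. Its partner Bub1b rose by 1.06 (SE 0.32), the microtubule-binding pair Ndc80 and Nuf2 by 0.98 (SE 0.19) and 0.93 (SE 0.21), and Cenpa, the histone variant that marks the centromere, by 0.96 (SE 0.30). The adjusted p of Cenpa was 0.0498 in edgeR. Hjurp, the chaperone that loads CENPA, had a log2 fold change of 0.16 (SE 0.13).

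Ttk, also called MPS1, is the kinase that starts the checkpoint signal, and it was the member that fell. It had 30.3, 32.1, 56.7, 59.1, 32.9 and 57.7 CPM in the WT mice and 26.0, 24.9, 28.1, 28.9, 35.2 and 30.1 CPM in the Pparg-/-epi mice. WT replicates 3, 4 and 6 stood above all other mice, while WT replicates 1, 2 and 5 lay within the range of the Pparg-/-epi mice. The log2 fold change was -0.63 (SE 0.19, adjusted p = 0.0414 in edgeR). Cenpf, a large kinetochore protein, ran from 10.8 through 24.6 to 43.8 CPM in WT mice and from 27.8 through 43.1 to 79.0 CPM in Pparg-/-epi mice, and with a log2 fold change of 0.96 and an SE of 0.39 it was not called (adjusted p = 0.123 in edgeR). Rangap1 ran from 86.3 through 126 to 137 CPM and from 123 through 150 to 175 CPM, with a log2 fold change of 0.34 (SE 0.12).

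Of the 7 genes of the chromosomal passenger complex and cytokinesis 6 rose, with a median log2 fold change of 0.92. Aurkb, the kinase of the passenger complex, ran from 3.48 through 5.35 to 6.73 CPM in WT mice and from 8.76 through 10.2 to 14.6 CPM in Pparg-/-epi mice, and rose by 1.09 (SE 0.22). Birc5 (survivin), its partner, ran from 7.11 through 11.5 to 19.9 CPM and from 20.05 through 22.3 to 28.6 CPM, and rose by 0.97 (SE 0.21). The groups of both genes were apart, those of Birc5 by a narrow gap. Cdca8 (borealin) rose by 0.92 (SE 0.24) and the late mitotic kinesin Kif20b by 0.89 (SE 0.21). Kif23, the kinesin of the central spindle, ran from 16.3 through 19.6 to 31.5 CPM and from 30.4 through 37.7 to 46.02 CPM, and rose by 0.79 (SE 0.18). Anln (anillin), a scaffold of the contractile ring, ran from 23.2 through 27.0 to 43.8 CPM and from 33.4 through 52.1 to 78.2 CPM, and rose by 0.86 (SE 0.22). In both genes the highest WT mouse lay above the lowest Pparg-/-epi mouse. Ect2, the exchange factor that activates RhoA at the cleavage site, had a log2 fold change of 0.93 (SE 0.30) and an adjusted p of 0.0524 in edgeR, and was not called.

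Of the 7 genes of chromosome structure 4 rose, with a median log2 fold change of 0.65. Beside Mki67 and Top2a these were Ncapd2, a subunit of condensin I, which rose by 0.83 (SE 0.21), and Cdca2, a phosphatase-targeting subunit, which rose by 0.65 (SE 0.18). Smc4, the ATPase shared by both condensins, ran from 129 through 152 to 169 CPM in WT mice and from 167 through 179 to 215 CPM in Pparg-/-epi mice. Its groups overlapped only slightly, and its adjusted p was 0.0341 in edgeR, but its log2 fold change of 0.31 (SE 0.09) lay under the required size. Hmgb2 had a log2 fold change of 0.22 (SE 0.13) and Lbr, the lamin B receptor of the inner nuclear membrane, of 0.02 (SE 0.12).

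The follicle score of a library was the mean log2 CPM of Krt25, Krt26, Krt27, Krt28 and Krt71. It was -1.86, 6.97, 3.60, -0.92, 3.65 and 5.45 in WT replicates 1 to 6 and 6.69, 8.38, 5.08, 3.70, 5.12 and 4.34 in Pparg-/-epi replicates 7 to 12. WT replicates 1 and 4 had almost no inner root sheath keratin RNA, and WT replicate 2 and Pparg-/-epi replicates 7 and 8 had the most. WT replicate 1 had 0 CPM of Krt25 and Krt26, so its score depends in part on the prior count of 2 used for log2 CPM. The WT mean of 2.82 ± 3.50 (SD, n = 6) and the Pparg-/-epi mean of 5.55 ± 1.71 (SD, n = 6) differed by 2.74, which did not pass a two-sided exact permutation test (p = 0.128). None of the 5 keratins was called by itself, with adjusted p from 0.349 to 0.537 in edgeR.

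Over the 54 genes the mean log2 CPM was 4.40, 4.15, 3.74, 3.59, 3.74 and 4.23 in WT replicates 1 to 6 and 5.20, 5.17, 4.81, 4.59, 4.54 and 4.48 in Pparg-/-epi replicates 7 to 12. WT replicate 1, which had the lowest follicle score of all mice, had the highest level among WT mice in 37 of the 54 genes. WT replicate 4, with the next lowest score, had the lowest in 20. Among Pparg-/-epi mice replicate 7 was highest in 29 genes and replicate 8 in 20, and these were the mice of the highest follicle scores in that group. WT replicate 2 had a higher follicle score than replicate 7, and its mean over the 54 genes lay below that of every Pparg-/-epi mouse.

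**Figure D3:**
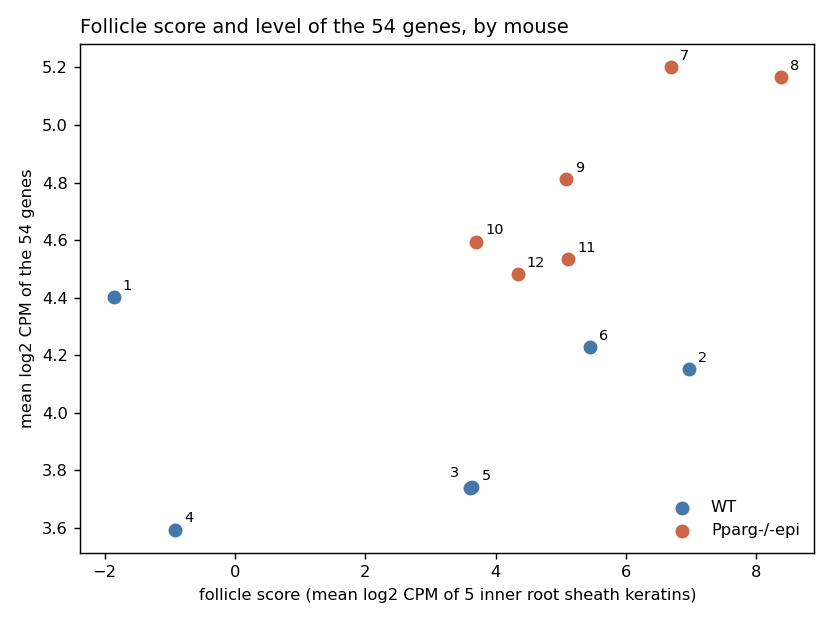
Each point is a mouse, labelled with its replicate number, with its follicle score on the horizontal axis and the mean log2 CPM of the 54 genes on the vertical axis. The 6 Pparg-/-epi mice lie between 4.48 and 5.20, all above the WT mice, which lie between 3.59 and 4.40 over a range of scores from -1.86 to 6.97.

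When the follicle score of each library was put in the model beside the genotype, 14 of the 54 genes were called higher in Pparg-/-epi mice and 0 lower, against 3.09% of all genes called higher and 3.51% lower. All 14 had also been called without the score. They were Cdk1, Ccna2, Cks1b, Cks2, Ube2c, Cdca3, Psrc1, Ndc80, Bub1, Aurkb, Birc5, Kif23, Mki67 and Top2a. By role they were 4 of the 11 genes of entry, 2 of the 4 of exit, 1 of the 15 of the spindle, 2 of the 10 of the kinetochore, 3 of the 7 of the passenger complex and cytokinesis and 2 of the 7 of chromosome structure. The fold changes themselves moved less than the calls. The median over the 54 genes was 0.82 with the score and 0.95 without it, and of the 36 genes called without the score 33 had a smaller fold change with it and 34 still had a log2 fold change of at least 0.6. The standard errors grew by a median of 1.19 times.

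Mki67 had a log2 fold change of 1.35 (SE 0.37, adjusted p = 0.0432 in edgeR) with the score, Top2a of 0.94 (SE 0.23, adjusted p = 0.0258) and Psrc1 of 1.31 (SE 0.16, adjusted p = 0.00128). Foxm1 lay just outside the threshold, at 0.97 (SE 0.28, adjusted p = 0.0555 in edgeR), as did Cdc20 at 1.21 (SE 0.35, adjusted p = 0.0504) and Kif11 at 1.00 (SE 0.29, adjusted p = 0.0516). Plk1 lost its call more clearly, at 0.99 (SE 0.37, adjusted p = 0.122 in edgeR), and Kif2c had 1.28 (SE 0.43, adjusted p = 0.0913). Ttk had -0.59 (SE 0.22, adjusted p = 0.126 in edgeR).

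**Figure D4:**
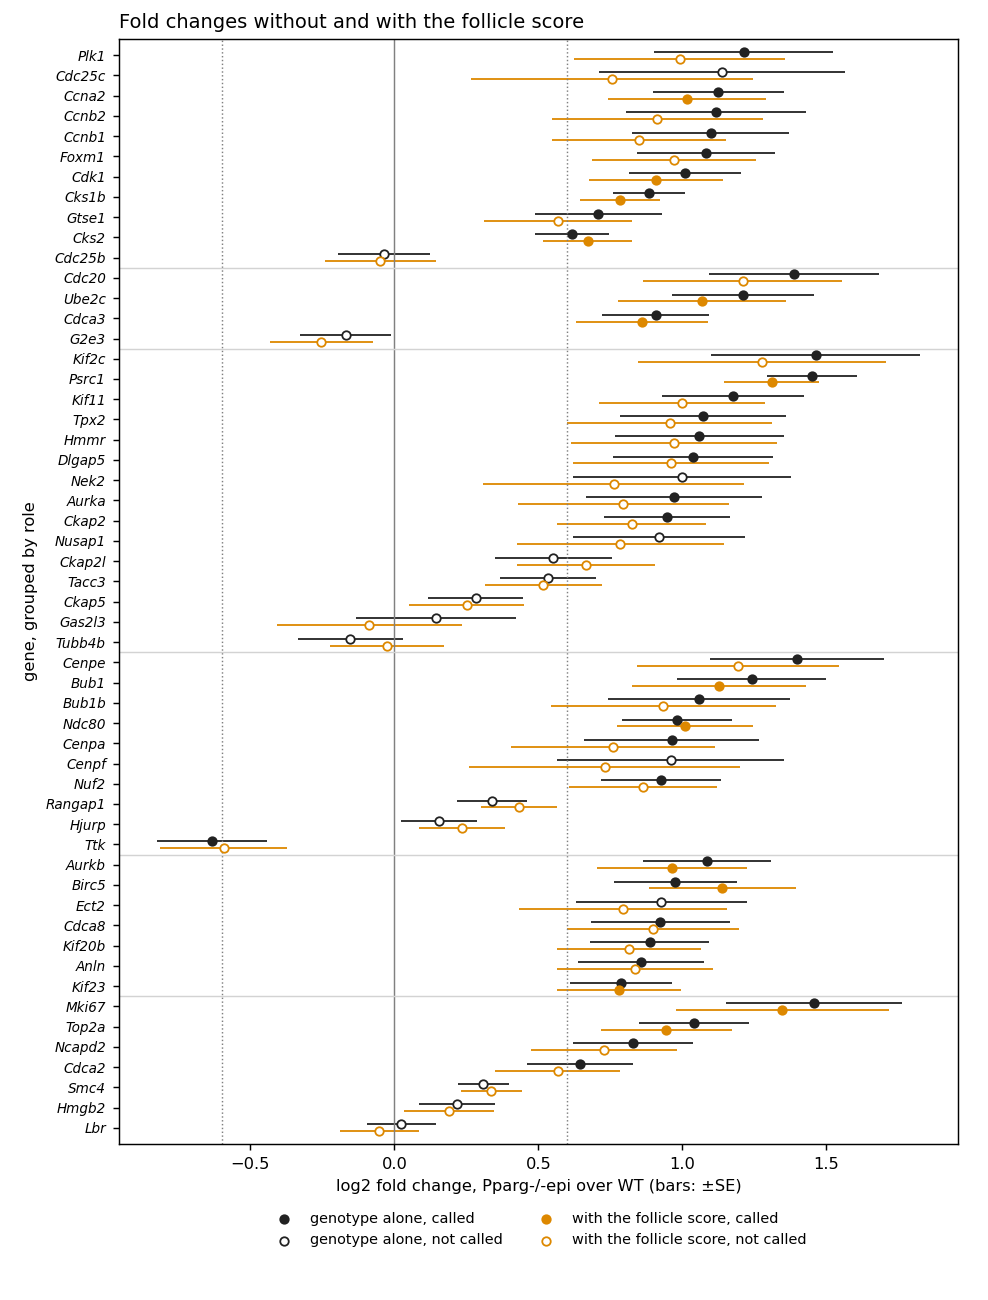
Points are the log2 fold changes of the 54 genes, Pparg-/-epi over WT, with bars of 1 SE on each side, in black for genotype alone and in orange with the follicle score in the model; filled points passed the test and the dotted lines mark a log2 fold change of 0.6. Most orange points sit slightly to the left of the black ones with longer bars, and 14 of them are filled.

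The slope of expression on the follicle score, with genotype in the model, passed an adjusted p of 0.05 in edgeR for 0 of the 54 genes, against 0.654% of all genes, and 0 of the 54 had an unadjusted p under 0.05. The slopes ran from -0.05 to 0.11 in log2 units per unit of score, with 45 above 0 and 9 below, and the lowest unadjusted p was 0.0774, for Psrc1. The shares of all genes with a slope above 0, or with an unadjusted p under 0.05, are not given here. The split of signs and the unadjusted count are therefore not set against a background. A slope that misses the threshold does not show that these genes did not vary with the follicle content.

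The count with the score also depended on the test and scaling. It was 30 with DESeq2, against 4.55% of all genes, 23 with edgeR's likelihood ratio test, against 4.09%, and 5 when only total counts scaled the libraries, against 2.64%. Among single mice left out it rose most without WT replicate 1, the mouse with the lowest score and the highest level of these genes among WT mice. Without it 34 of the 54 genes were called higher with the score in the model and 1 lower, against 4.07% of all genes called higher. Without WT replicates 1 and 4, an alternative added after the data had been seen, 38 were called higher with the score, against 4.67% of all genes, and without the score 28 were, against 3.09% of all genes. Leaving out any of the other mice with the score in the model left 4 to 13 genes called, the fewest without WT replicate 6 or Pparg-/-epi replicate 9, where 2.01% and 2.13% of all genes were called higher. Without WT replicate 2, the WT mouse of the highest score, 36 of the 54 genes were called higher by genotype alone, against 8.97% of all genes. With the score 5 of the 54 were called higher there, against 4.97% of all genes.

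Without the score the count of called genes ran from 22 without Pparg-/-epi replicate 8 and 23 without replicate 7 to 39 without WT replicate 1. Of all genes 3.87%, 3.64% and 5.00% were called higher in these fits. The median log2 fold change moved between 0.81 and 1.08 as mice were left out in turn. Of the 36 genes that rose 22 kept the call whichever mouse was left out and 14 lost it for some mouse, among them Gtse1, Aurka and Cenpa, which had adjusted p just under 0.05. Ttk lost its call in 8 of the 12 fits.

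The mice were not alike in other respects. Their names begin with a number whose meaning is not stated, and WT replicate 1 and Pparg-/-epi replicates 7 to 9 had lower numbers than the other 8 mice. The number of WT replicate 1 lay nearer to those of the other 8 mice than to those of Pparg-/-epi replicates 7 to 9. Without this mouse the set of lower numbers would hold Pparg-/-epi mice alone, and a block with it among the higher numbers was not tested. Pparg-/-epi replicates 7 to 9, all females, were all above replicates 10 to 12 in 34 of the 54 genes and all below them in 3, and their RNA integrity numbers (RIN) were 8.6, 8.5 and 7.7 against 7.7, 5.7 and 7.1. Sex, the name number, RNA integrity and follicle content cannot be told apart as the source of the spread among these mice. With the number (lower or higher) as a block 27 of the 54 genes were called higher and 0 lower, against 3.99% of all genes called higher, and the median log2 fold change was 0.72. With the block and the follicle score together 15 were called higher, against 3.38% of all genes, and the median was 0.56. With RIN as a covariate 32 were called higher, against 5.26% of all genes, with a median of 0.76. With RIN and the score together 17 were called higher, against 4.07%, with a median of 0.70. Among the 5 WT and 3 Pparg-/-epi mice of the higher numbers alone, an alternative added after the data had been seen, 5 genes were called, against 1.78% of all genes. These were Ccna2, Cks1b, Psrc1, Birc5 and Top2a. Of the 54 genes 48 had fold changes above 0 there, against 45.2% of all genes, with a median over the 54 of 0.65.

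Of the 54 genes 51 had a fold change above 0 in females alone and 48 in males alone, against 48.6% and 46.3% of all genes. Among the 3 WT and 4 Pparg-/-epi females alone 9 genes were called, against 2.02% of all genes, with a median log2 fold change of 1.13 over the 54 genes. Among the 3 WT and 2 Pparg-/-epi males alone edgeR called 0 of the 54 genes, against 0.0757% of all genes called higher. There 12 of the 54 were under an unadjusted 0.05, against 14% of all genes, and the median was 0.53. The difference between the sexes was tested as an interaction with genotype, and 0 of the 54 genes passed an adjusted p of 0.05 in edgeR's quasi-likelihood test or in its likelihood ratio test, which called 0 and 4 of all 14533 genes. Cdc25b was the single member under an unadjusted 0.05 in edgeR's test, with a difference in log2 fold change, males minus females, of -0.74, against 5.1% of all genes.

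Other lists of the cell cycle were read in the same fit, in which 5.19% of all genes were called higher and 5.08% lower. Among 67 further genes of mitosis 32 rose and 0 fell, with a median log2 fold change of 0.78. The 4 with the smallest adjusted p in edgeR were the nuclear import factor Kpna2, which rose by 0.68 (SE 0.09, adjusted p = 4.63e-04), Shcbp1 by 1.07 (SE 0.17), the passenger complex scaffold Incenp by 0.83 (SE 0.15) and the centriole protein Stil by 0.82 (SE 0.15). Among 58 genes of DNA replication and S phase 8 rose and 0 fell, with a median of 0.26. The 4 of smallest adjusted p were Dbf4, the activator of the CDC7 kinase, which rose by 0.81 (SE 0.11), the checkpoint mediator Clspn by 1.10 (SE 0.15), the replication factor Mcm10 by 1.02 (SE 0.19) and cyclin E1 (Ccne1) by 0.90 (SE 0.21). With the follicle score 10 of the 67 and 7 of the 58 were called higher, against 3.09% of all genes.

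Among 21 regulators of these genes, of the DREAM, MuvB and RB-E2F families, 3 rose and 0 fell, with a median log2 fold change of 0.10. E2f3 rose by 0.97 (SE 0.18) and Mybl2, which joins the MuvB core at G2 promoters, by 0.93 (SE 0.21). Rb1, the retinoblastoma protein, had a log2 fold change of -0.50 (SE 0.11) and Tfdp1, the partner of E2F, of 0.36 (SE 0.09), both under the required size although with adjusted p of 0.0085 and 0.0149 in edgeR. Among 10 G1 cyclins and CDKs 0 were called in either direction, with a median of 0.00 and 2 under an unadjusted 0.05 in edgeR, against 29.5% of all genes. These were Cdk7, whose log2 fold change of -0.28 (SE 0.08, adjusted p = 0.0383) lay under the required size, and Myc, at 0.42 (SE 0.16). Among 11 CDK inhibitors and antiproliferative genes 0 were called and 0 were under an unadjusted 0.05 in edgeR, with a median of -0.06, and with 5.19% of all genes called higher a count of 0 in lists of this size is near the background. The 4 of smallest adjusted p moved in both directions. Cdkn1c had -0.95 (SE 0.51), Cdkn2c 0.22 (SE 0.12), Btg2 0.19 (SE 0.14) and Cdkn1a (p21) -0.23 (SE 0.17).

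**Figure D5:**
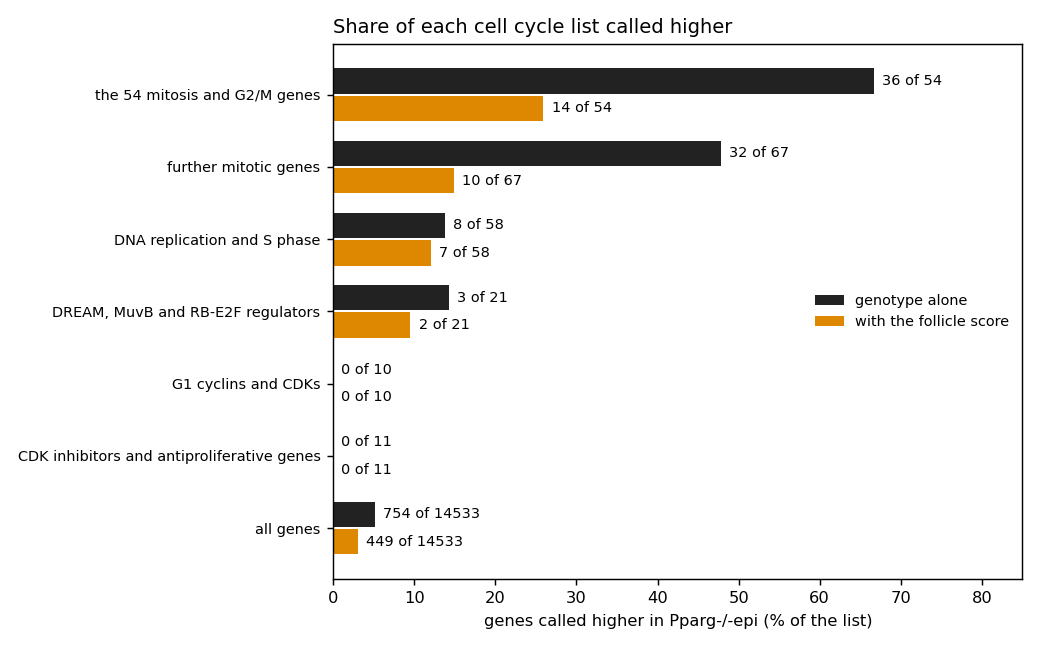
Bars give the percentage of each list of cell cycle genes called higher in Pparg-/-epi mice, in black for genotype alone and in orange with the follicle score in the model, with the number of genes at the end of each bar. The 54 genes have 36 and 14, the further genes of mitosis 32 of 67 and 10, and the G1 and inhibitor lists have none.

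Libraries held 10120840 to 18851255 counts on named genes. Counts over the whole Pparg gene were 0.533 to 14.3 CPM in WT mice and 1.33 to 6.49 CPM in Pparg-/-epi mice and did not separate the genotypes, and as the deleted allele still gives a transcript this count is no check of the labels. The 7 basal keratinocyte markers were present in every library. Krt14 rose by 0.98 (SE 0.20, adjusted p = 0.00559 in edgeR) and the other 6 were not called, with a list median of -0.15, and the mean log2 CPM of the list differed by 0.04 between the genotypes (exact permutation p = 0.688, two-sided). All 6 mast cell markers rose, from a summed level of 19.2 to 90.2 CPM in WT mice to 131 to 240 CPM in Pparg-/-epi mice, and Fcer1a was at 0 in some WT libraries. Of 7 sebaceous gland markers 5 fell, from 714 to 3016 CPM summed in WT mice to 382 to 495 CPM in Pparg-/-epi mice, and Scd3 and Awat1 were at 0 in some Pparg-/-epi libraries. Of 8 outer root sheath and bulge markers 2 fell and 1 rose, of 11 hair matrix and dermal papilla markers 1 fell, of 5 endothelial markers 1 rose and of 6 Langerhans cell markers 2 rose. The median log2 fold changes of these lists were -0.76, 0.32, 1.30 and -0.02, and that of the hair matrix list was -0.49 with the follicle score. Of 8 other inner root sheath markers 1 fell, of 8 suprabasal keratinocyte markers 1 rose and of 5 T cell markers 1 fell. Of 5 melanocyte markers 0 were called, with a median of 1.46, or 0.04 with the score. As 5.19% of all genes were called higher and 5.08% lower, single calls in short lists carry little weight. With the basal keratinocyte markers in place of the follicle score in the model 32 of the 54 genes were called, against 5.39% of all genes called higher. The part of the other cell types in the difference of the 54 genes was not tested. RNA integrity numbers (p = 0.310), ages (p = 1) and total counts (p = 0.965) did not pass the same exact permutation test between the genotypes.

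Some counts can hold reads of other genes. Exons of Ccna2, Cdc20, Hjurp and Nusap1 overlap those of Exosc9, Elovl1, Mroh2a and Oip5 on the opposite strand, by 378, 52, 2554 and 208 bases, and the strand setting of the counting is not given in the sources used here. Exosc9 and Elovl1 had log2 fold changes of -0.05 (SE 0.12) and -0.16 (SE 0.21), against 1.12 and 1.39 for Ccna2 and Cdc20. Mroh2a and Oip5 had -0.76 (SE 0.31) and 0.53 (SE 0.21), against 0.16 and 0.92 for Hjurp and Nusap1, and none of the 4 partners was called. Of the 75-base stretches of their transcripts 29.9% for Tubb4b, 26.9% for Cks2, 18.9% for Ccnb1 and 17.5% for Hmgb2 also occur in other annotated genes, such as pseudogenes, and reads there may be missing from these counts or shared between the copies.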

How the data were processed

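RNA was measured in epidermal scrapings of 6 WT and 6 Pparg-/-epi mice. The deposited values are raw counts of reads per gene, which the authors made by aligning to mm10 with STAR 2.5.2b and counting with featureCounts of Subread 1.5.1, per the labels, and the authors kept genes over 0.5 CPM in at least 6 mice. The strand setting of the counting is not given in the sources used here. Rows with no gene name (2800) were dropped, which left 14533 genes and 10120840 to 18851255 counts per mouse. Counts were fitted in edgeR 4.0.16 (R 4.3.3) with TMM factors and the quasi-likelihood test over all genes, for genotype alone, genotype with the follicle score, and sex by genotype. The score was the mean log2 CPM (prior count 2) of 5 keratins. The SE of each log2 fold change in edgeR was the size of the change divided by the square root of the F statistic of its test. The 54 genes, the role groups, the other lists and the marker lists were chosen with earlier results of these data known. All 54 genes were named with their fold change, Mki67, Top2a and Foxm1 with every mouse, and for each role group the 2 genes of largest fold change and the 2 of highest mean CPM with lowest, median and highest CPM; Ttk was given for every mouse after its value had been seen. Of each other list at most the 4 genes of smallest adjusted p were named. The fits were tested on simulated data. Single values were compared by exact permutation tests (scipy 1.17.1). Alternatives were DESeq2 1.42.0, the likelihood ratio test, other size factors and filters, other scores, covariates, sexes alone and leaving out each mouse. Groups were taken from sample titles, and 2 Pparg-/-epi columns (replicates 11 and 12) were matched to samples through the run sheet of the study. Ages were taken from the labels and differ for some mice from those in the study's supplement.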

Additional observations from a re-analysis of the deposited data

Results flagged for a closer look

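Over the 54 genes, the 5 follicle keratins and both groups of 6 mice, 118 sets of values were screened for a mouse far from the others, by whether its gap to the nearest value, divided by the range, passed Dixon's critical value of 0.625. Chance flags about 1 in 20 sets, and 9 were found. The single one among the 54 genes was Smc4, with 215 CPM in Pparg-/-epi replicate 12 against 167 to 185 CPM in the other Pparg-/-epi mice. The others were follicle keratins. Pparg-/-epi replicate 8 stood apart with 715 CPM of Krt25, 92.5 CPM of Krt26, 443 CPM of Krt27, 159 CPM of Krt28 and 881 CPM of Krt71. WT replicate 2 stood apart with 50.9 CPM of Krt26, 221 CPM of Krt27 and 367 CPM of Krt71. The comparisons without these mice are among those given for each mouse left out.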

How the results depend on the processing

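No paired analysis was possible because the replicate numbers, 1 to 6 and 7 to 12, are not shared between the groups. The paper describes the WT mice as sibling controls, but the labels used here do not say which mice were siblings. The name number served as a block instead. For the comparison of genotypes, 37 of the 54 genes were called, 36 higher and 1 lower. Counts in this section are of the 54 genes called in either direction, while percentages in brackets are of all genes called higher. As mice were left out in turn the count ran from 22 (3.87%) to 39 (5.00%), and the 39 were 38 higher and 1 lower. It was 41 with DESeq2 (6.48%), 39 with the likelihood ratio test (6.07%), 36 with other size factors (5.20%), 32 with total counts alone (4.50%), 32 with sex and 32 with RIN as a covariate, 35 with age, 37 with at least 10 counts in every mouse and 36 with a mean of at least 5 CPM. It was 9 in females alone (2.02%), 0 in males alone (0.0757%) and 5 in mice of the higher name numbers alone (1.78%). With the follicle score the fewest, 4, were called without WT replicate 6 (2.01%) or Pparg-/-epi replicate 9 (2.13%). The most, 35, were called without WT replicate 1 (4.07%). In all 12 mice 14 were called with the score (3.09%). That count, with the percentage of all genes called higher in brackets, was 30 with DESeq2 (4.55%), 23 with the likelihood ratio test (4.09%), 9 with age (2.84%), 5 with total counts alone (2.64%) and 32 with basal keratinocyte markers in place of the score (5.39%). It was 5 in females (1.04%), 1 in males (0.523%), 7 in mice of the higher name numbers (1.75%), 38 without WT replicates 1 and 4 (4.67%), 14 with Krt71 alone (2.94%), 21 with hair shaft keratins (3.80%) and 18 with the rank of the score (3.92%). With the score the count was 15 with the name number as a block (3.38%), 17 with RIN (4.07%) and 15 with sex (3.15%). With a prior count of 0.5 in the score it was 16 (3.10%), and the difference in follicle score was 3.00 (exact permutation p = 0.128). The difference in follicle score ran from 1.80 to 3.57 as mice were left out, and passed the test only without WT replicate 2 (3.57, exact permutation p = 0.0476). The cause of these shifts was not tested.

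Fold changes that changed sign were all of genes not called. Cdc25b (log2 fold change -0.03) had 0.235 in females alone and -0.118 to 0.0572 as mice were left out. Ckap5 (0.28) had -0.0308 in mice of the higher name numbers and -0.0645 in males. Gas2l3 (0.15) had -0.0766 with RIN, -0.219 with the name number as a block, -0.479 in mice of the higher name numbers, -0.548 in males, -0.0512 with sex, and -0.0333 to 0.285 as mice were left out. Tubb4b (-0.15) had 0.0291 with RIN, 0.0575 in mice of the higher name numbers and 0.00125 in males. Lbr (0.02) had -0.137 in mice of the higher name numbers, -0.0532 in males, -0.0468 without WT replicates 1 and 4, and -0.0615 to 0.115 as mice were left out. The lowest count of any of the 54 genes in a mouse was 15, for Cdc25c, which also had the largest standard error (0.43); the part of depth in the errors was not tested.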
